A study of Mus musculus with 6 samples.

Results

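The 10 genes described here carry peptide presentation by MHC class I, and they were chosen by name: the class I heavy chains H2-K1 and H2-D1, beta-2-microglobulin (B2m), the peptide transporter and loading genes Tap1, Tap2 and Tapbp, the immunoproteasome subunits Psmb8, Psmb9 and Psmb10, and the class I transactivator Nlrc5. The choice was made with earlier results of these data known. Each symbol matched 1 of the 45706 gene identifiers in the table, and all 10 were among the 14635 genes with enough counts to test. The cells were lung fibroblasts of wild-type mice, grown out of enzyme-digested lungs. Cells labelled control (3 samples) were compared with cells kept for 24 hours with 30 ng/ml of recombinant mouse DKK1 (3 samples), to find genes that respond to DKK1, a secreted inhibitor of Wnt signalling. Mouse strain, age, sex, any vehicle given to the controls and whether replicates came from separate animals are not given in the sources used here, so p-values measure the spread between these samples, which may be technical.

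Class I molecules show fragments of a cell's own proteins to CD8 T cells and are made by nearly all nucleated cells. Proteasomes cut proteins into peptides, and in cells exposed to interferon the immunoproteasome subunits replace standard catalytic subunits. The transporter formed by TAP1 and TAP2 moves peptides into the endoplasmic reticulum, where tapasin, the product of Tapbp, holds empty class I molecules beside it. NLRC5 works in the nucleus as a transactivator of class I genes, and NF-kB and interferon regulatory factors act on their promoters. The class I heavy chains differ between mouse strains, and the reference sequences used here are those of C57BL/6J.

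Library totals were 22565917 to 34727102 expected counts, and levels are given as CPM, counts per 1000000 of the library total. The labelled cell type fitted its markers: all 9 fibroblast markers were detected above 1 CPM on average, from Lum at 2.12 ± 0.527 CPM to Col1a1 at 5940 ± 384 CPM in control (SD, n = 3). Summed, they gave 15696 to 17269 CPM in control and 14424 to 16213 CPM in DKK1 libraries. In the paired test 5 of the 9 were called lower, beside 4.46% of all tested genes, and 2, Pdgfra and Dcn, higher, beside 4.96%. The unpaired test called 0 of the 9. The cultures also held RNA of other cells. Summed over 12 macrophage or monocyte markers the level was 452 to 897 CPM in control and 486 to 913 CPM in DKK1 libraries, and replicate 3 was the highest library of each group. Lyz2 made up most of that sum, at 340, 402 and 696 CPM in control replicates 1 to 3 and 370, 412 and 722 CPM in the DKK1 replicates. Replicate 3 of each group was also the highest in the summed endothelial, epithelial and mesothelial markers, with 61.0, 125 and 53.5 CPM in its control library. T cell, NK cell and B cell markers reached summed levels of no more than 0.781, 2.12 and 0.177 CPM in any library. In bulk RNA, a change in the number of cells of a type and a change in RNA per cell cannot be told apart.

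The RNA of the 10 members together was slightly higher in every DKK1 library than in any control library. B2m rose 1.13-fold and was the only member called when samples were treated as unpaired (edgeR quasi-likelihood test, adjusted p under 0.05). When same-numbered samples were paired, H2-K1, H2-D1, B2m and Tapbp rose, by 1.11 to 1.20-fold, and none of the 10 fell. Pairing here means that the replicate number was a block in the same edgeR model. The unpaired calls thus took in 1 of 10 members, beside 0.697% of all tested genes called higher, and the paired calls 4 of 10, beside 4.96% called higher and 4.46% called lower. These shares and those that follow are descriptions, since the members were chosen with earlier results of these data known. In 9 of 10 the log2 fold change (LFC) was above 0, beside 49.6% of all tested genes. In 9 of the 10 members the DKK1 library was the higher one in all 3 same-numbered pairs, against 22.3% of all tested genes, and the exception was Nlrc5. The groups did not overlap, with DKK1 higher, for 4 members, against 9.4% of all tested genes; for no member were they apart with DKK1 lower, against 7.14%. The median LFC of the 10 was 0.19 unpaired and 0.19 paired, beside -0.00091 and -0.00063 over all tested genes. Summed over the 10 members, the level was 415 to 440 CPM in control and 475 to 495 CPM in DKK1 libraries; B2m alone made up 47.1% to 49.4% of that sum.

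**Figure D1:**
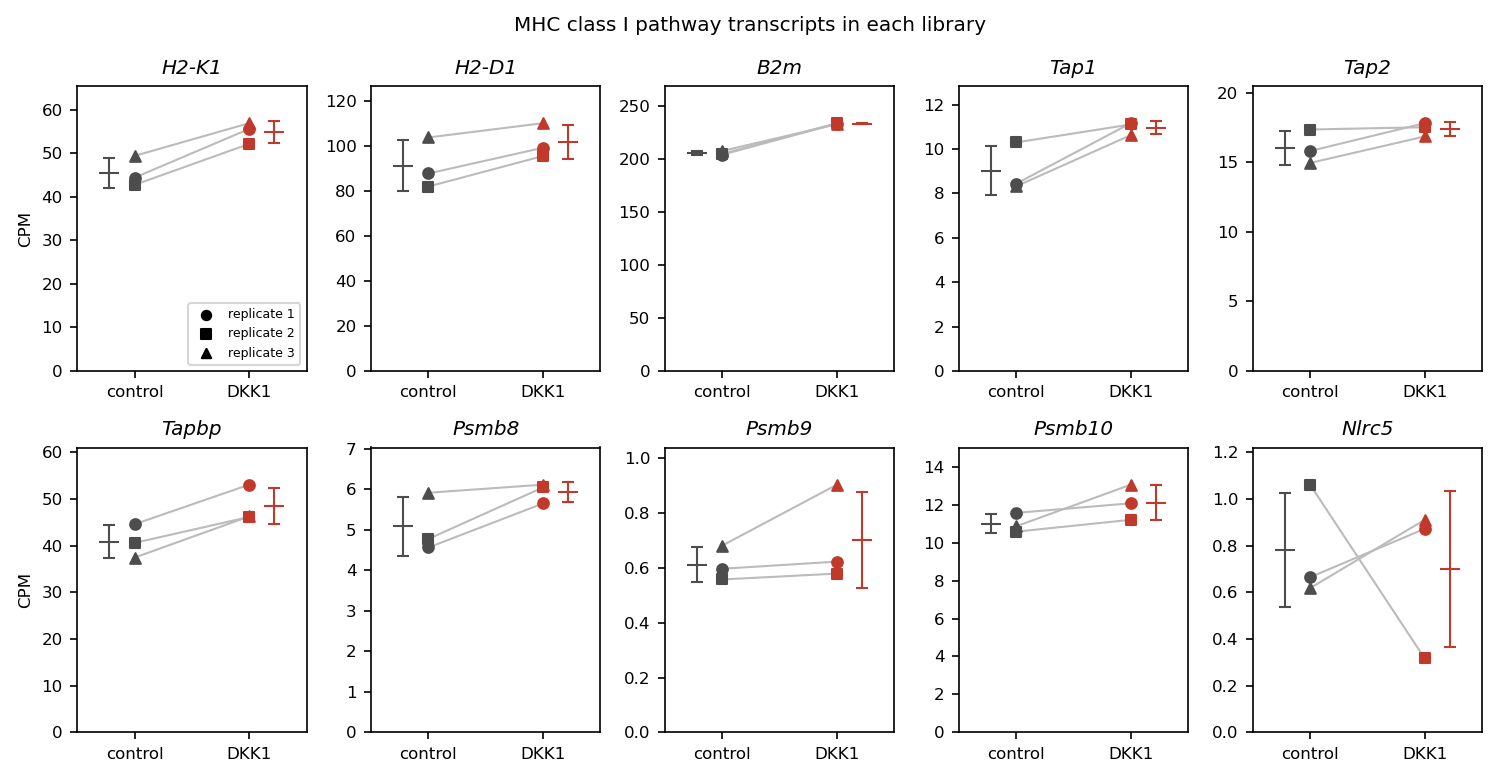
CPM (y axis, from 0) of each of the 10 genes in the control and DKK1 libraries; symbols mark replicates 1 to 3, grey lines join same-numbered libraries, and bars are the mean ± SD (n = 3). The lines go up in all 3 pairs for every gene except Nlrc5, and the groups are apart for H2-K1, B2m, Tap1 and Tapbp.

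B2m (ENSMUSG00000060802, chr2:122147686-122153083), the light chain that every class I molecule needs to fold and reach the surface, gave the steadiest values of the members. It stood at 204, 205 and 208 CPM in control replicates 1, 2 and 3 and at 233.7, 234.2 and 233.2 CPM in DKK1 replicates 1, 2 and 3. All DKK1 libraries were above all control libraries, and the gap between the groups was many times the spread within them. The LFC was 0.18 (SE 0.03, edgeR adjusted p = 0.0335; with the replicate number as a block 0.18, SE 0.02, adjusted p = 0.00012). The unpaired call was lost without any 1 of the 6 libraries (adjusted p = 0.0639 to 0.161), while the LFC stayed at 0.17 to 0.18. B2m transcripts have a GC content of 41.2%, the lowest of the 10, and with the GC and length trends of the libraries taken out, the LFC was 0.11, not called unpaired (adjusted p = 0.433) and called paired (adjusted p = 0.0046).

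H2-K1 (ENSMUSG00000061232, chr17:33996017-34000347), a classical heavy chain that binds the peptide, was measured at 44.4, 42.7 and 49.4 CPM in control replicates 1 to 3 and at 55.6, 52.2 and 56.9 CPM in the DKK1 replicates. The groups did not overlap, and replicate 3 was the highest and replicate 2 the lowest library in each. Its LFC of 0.27 was not called unpaired (SE 0.06, edgeR adjusted p = 0.105) and was called paired (SE 0.04, adjusted p = 0.000445). Without the filter on low counts it was called unpaired, both by edgeR (adjusted p = 0.0158) and by DESeq2 (adjusted p = 0.0301).

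H2-D1 (ENSMUSG00000073411, chr17:35262730-35267499), the other classical heavy chain measured here, had the same order of replicates but a wider spread. Its levels were 87.8, 82.0 and 103.8 CPM in control replicates 1 to 3 and 99.2, 95.6 and 110.2 CPM in the DKK1 replicates. Control replicate 3 lay above DKK1 replicates 1 and 2, so the groups overlapped, although each DKK1 library was above its same-numbered control. The LFC was 0.15 (SE 0.08, edgeR adjusted p = 0.611; paired 0.16, SE 0.03, adjusted p = 0.00667); without the replicate 2 pair, the paired call was lost (0.13, adjusted p = 0.142). The unpaired LFC was 0.08 without control replicate 2, 0.09 without DKK1 replicate 3 and 0.25 without control replicate 3. Counts of H2-D1 were fractional in 6 of 6 libraries and those of H2-K1 in 3, which were the DKK1 libraries. RSEM divides reads that match several genes among them by estimate, and class I heavy chains are near-identical in places, so their separate values are uncertain. With the counts of both genes summed and tested as 1 gene, the LFC was 0.19 (SE 0.07, edgeR adjusted p = 0.384; paired 0.19, SE 0.03, adjusted p = 0.000508). In control libraries the counts of H2-K1 were whole and those of H2-D1 were not. The sum was thus fractional there too, and it does not remove the uncertainty of divided reads. The level of H2-K1 per length was 42.0%, 43.2% and 39.5% of that of H2-D1 in control replicates 1 to 3 and 46.5%, 45.3% and 42.9% in the DKK1 replicates, higher with DKK1 in each pair, with overlap between the groups.

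The sequences just upstream of the start sites of H2-K1, H2-D1 and B2m are shown because they encode the class I molecule itself and are the members whose windows matched all 4 motifs searched; this is a choice made on the sequences. Tapbp, which also rose in the paired test, had 2 CCAAT matches in its window and 0 to each of the other motifs. RefSeq gives H2-K1 a pair of start sites 14 bases apart, and the upstream one is used here. The 250 bases before the start site are given 5′ to 3′ on the gene's strand (GRCm38.p6). Capitals mark matches, on either strand, to the letters GGGNN directly followed by TTNCC (an NF-kB type site), AANNGAAA (the core bound by interferon regulatory factors), TGACG (the core of a cyclic AMP response element) and CCAAT (the box bound by NF-Y); the motifs were picked with these promoters in view.
H2-K1 (chr17:34000348-34000597, minus strand): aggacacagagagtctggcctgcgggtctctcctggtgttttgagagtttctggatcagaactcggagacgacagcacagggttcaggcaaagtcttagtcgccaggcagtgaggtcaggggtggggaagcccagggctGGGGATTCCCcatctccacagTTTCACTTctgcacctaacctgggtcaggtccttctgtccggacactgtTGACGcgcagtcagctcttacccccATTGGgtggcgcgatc
H2-D1 (chr17:35262844-35263093, plus strand): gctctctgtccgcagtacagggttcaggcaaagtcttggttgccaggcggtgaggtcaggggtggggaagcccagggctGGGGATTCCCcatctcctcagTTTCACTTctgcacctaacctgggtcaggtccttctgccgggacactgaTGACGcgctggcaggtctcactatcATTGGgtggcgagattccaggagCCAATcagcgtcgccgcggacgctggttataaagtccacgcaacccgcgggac
B2m (chr2:122147437-122147686, plus strand): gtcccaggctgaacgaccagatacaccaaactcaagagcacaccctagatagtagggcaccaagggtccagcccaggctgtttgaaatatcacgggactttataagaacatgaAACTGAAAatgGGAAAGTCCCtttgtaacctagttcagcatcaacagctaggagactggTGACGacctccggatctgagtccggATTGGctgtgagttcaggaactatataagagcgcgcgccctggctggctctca

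The order of elements in H2-K1 and H2-D1 was alike: GGGGATTCCC, then TTTCACTT, then TGACG, then ATTGG, the reverse complement of CCAAT. A further CCAAT followed in the H2-D1 window, and also in H2-K1 when its window was taken from the downstream start site. The GGGGATTCCC match began 111 bases before the upstream start site of H2-K1 and 171 bases before the start site of H2-D1. Where the 2 windows align, 174 of 190 bases (91.6%) were identical. In B2m the interferon regulatory factor core came first, followed by GGAAAGTCCC, then TGACG and ATTGG. The letters are those of the gene's strand; GGAAAGTCCC, TTTCACTT and ATTGG match their motifs when read on the opposite strand. Promoter windows were found for 8 of the 10 genes, and these 3 were the ones with a match to all 4 motifs; of 32851 mouse windows of the same length, 4.11% held the NF-kB type letters, 21.3% AANNGAAA, 17.8% TGACG, 33.8% CCAAT and 0.0731% all 4. No overlap occurred among the matches printed. A match describes letters only, and binding was not measured.

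Tapbp (ENSMUSG00000024308, chr17:33915899-33929292), which encodes the loading factor tapasin, stood at 44.6, 40.6 and 37.4 CPM in control replicates 1 to 3 and at 53.1, 46.1 and 46.3 CPM in the DKK1 replicates. The DKK1 libraries were all above the control libraries, and replicate 1 was the highest in each group, unlike H2-K1 and H2-D1. Its LFC was 0.24 (SE 0.08, edgeR adjusted p = 0.285; paired 0.24, SE 0.04, adjusted p = 0.00159). Tapbp shares exon positions with Zbtb22 on its own strand and with Gm19412 on the opposite strand. Its counts were not whole in any library, and added to those of Gm19412 they came to whole numbers in all 6 (within 0.015), so reads were divided between these genes; Gm19412 received 63.0 counts over all 6 libraries.

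Tap1 (ENSMUSG00000037321, chr17:34187553-34197225), a subunit of the peptide transporter, had an LFC of 0.27, like that of H2-K1. It measured 8.44, 10.3 and 8.32 CPM in control replicates 1 to 3 and 11.2, 11.1 and 10.6 CPM in the DKK1 replicates, which did not overlap. The increase was large in pairs 1 and 3 and small in pair 2, with log2 differences of 0.39, 0.35 and 0.10, and it was not called in either test (SE 0.10, edgeR adjusted p = 0.37; paired SE 0.09, adjusted p = 0.0791). Tap2 (ENSMUSG00000024339, chr17:34203527-34216321), the partner subunit, measured 15.8, 17.4 and 14.96 CPM in control and 17.8, 17.5 and 16.9 CPM in DKK1 libraries. Its groups overlapped through control replicate 2, and its LFC of 0.11 was not called (SE 0.07, edgeR adjusted p = 0.681; paired 0.11, adjusted p = 0.384); it was 0.18 without control replicate 2 and 0.06 without control replicate 3. Per length, Tap1 stood at 36.4%, 40.4% and 37.9% of the level of Tap2 in control replicates 1 to 3 and at 42.7%, 43.2% and 43.0% in the DKK1 replicates, without overlap.

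The immunoproteasome subunits were low, and none was called in either test. Psmb8 (ENSMUSG00000024338, chr17:34197721-34201454), the subunit that takes the place of Psmb5, measured 4.56, 4.78 and 5.92 CPM in control replicates 1 to 3 and 5.65, 6.05 and 6.11 CPM in the DKK1 replicates. Only control replicate 3 reached into the range of the DKK1 libraries. Its LFC was 0.22 (SE 0.13, edgeR adjusted p = 0.628; paired 0.23, adjusted p = 0.27), and 0.33 without control replicate 3. Psmb10 (ENSMUSG00000031897, chr8:105935735-105938444), which replaces Psmb7, measured 11.6, 10.6 and 10.9 CPM in control and 12.1, 11.2 and 13.1 CPM in DKK1 libraries, with overlap and an LFC of 0.13 (SE 0.08, edgeR adjusted p = 0.668; paired 0.13, adjusted p = 0.399); without DKK1 replicate 3 it was 0.08. Psmb9 (ENSMUSG00000096727, chr17:34181987-34187764), which replaces Psmb6, was close to the limit of the data at 13.46 to 20.82 expected counts a library. Its levels were 0.596, 0.558 and 0.681 CPM in control and 0.622, 0.579 and 0.903 CPM in DKK1 libraries, and its LFC of 0.20 had an SE of 0.29 (edgeR adjusted p = 0.886; paired 0.20, adjusted p = 0.79). DKK1 replicate 3 set that value: without it the LFC was -0.000247.

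The standard subunits, which all cells use, were far more abundant. Per length, Psmb8 stood at 2.73%, 2.98% and 3.46% of the level of Psmb5 in control replicates 1 to 3 and at 3.54%, 3.79% and 3.61% in the DKK1 replicates. Psmb10 stood at 6.69%, 6.33% and 6.31% of Psmb7 in control and at 7.27%, 6.74% and 7.37% with DKK1. Neither ratio overlapped between the groups, and both were higher with DKK1 in all 3 pairs. No ratio given here was tested, and the groups did not overlap, in either direction, for 16.5% of all tested genes. Psmb9 stood at 0.520% to 0.589% of Psmb6 in control and 0.532% to 0.813% with DKK1, with overlap. The denominators, named after their values were seen, had LFCs of -0.03 for Psmb5, -0.02 for Psmb6 and -0.01 for Psmb7 (edgeR adjusted p = 0.844, 0.906 and 0.955).

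The Tap1 and Psmb9 values are tied together. These genes lie head to head on opposite strands of chromosome 17, and their annotated exons overlap. Their expected counts were fractional in all 6 libraries, but the sum of the 2 was 204, 307 and 204 in control replicates 1 to 3 and 338, 406 and 266 in the DKK1 replicates, whole in every library within 0.015. Reads from the shared stretch were thus divided between the genes, and the split of low values such as those of Psmb9 is an estimate. Tested as 1 gene, the sum had an LFC of 0.27 (SE 0.10, edgeR adjusted p = 0.337; paired 0.27, SE 0.09, adjusted p = 0.0749). The 225 bases between their RefSeq start sites are shown because they are the common upstream region of both genes; the sequence is on the strand of Tap1 (GRCm38.p6), and capitals mark the matches to the same motifs, here CCAAT and TGACG.
Tap1-Psmb9 interval (chr17:34187331-34187555, plus strand): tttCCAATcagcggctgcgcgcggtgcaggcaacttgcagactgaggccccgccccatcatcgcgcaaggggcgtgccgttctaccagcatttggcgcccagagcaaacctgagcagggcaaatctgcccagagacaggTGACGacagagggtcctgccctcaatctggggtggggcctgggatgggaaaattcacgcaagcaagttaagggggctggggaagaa

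Nlrc5 (ENSMUSG00000074151, chr8:94434356-94527272) was the exception among the members. It was measured at 0.665, 1.06 and 0.618 CPM in control replicates 1 to 3 and at 0.872, 0.317 and 0.911 CPM in the DKK1 replicates, from 11 to 30 counts a library. Replicate 2 was the highest library of the control group and the lowest of the DKK1 group, and pairs 1 and 3 went up while pair 2 went down. The LFC was -0.22 (SE 0.43, edgeR adjusted p = 0.922; paired -0.27, adjusted p = 0.782), and it was 0.16 without DKK1 replicate 2 and 0.08 without control replicate 2. The SE was larger than the LFC of every other member, so a change of their size could not be told from none.

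**Figure D2:**
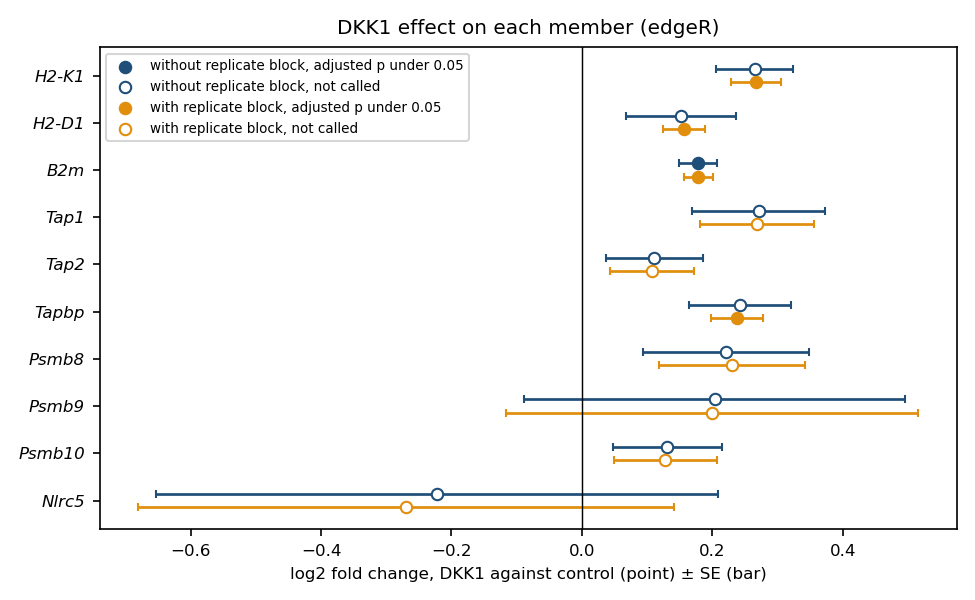
LFC of DKK1 against control (x axis, point) ± SE (bar) for each gene, by edgeR without (blue) and with (orange) the replicate block; filled points have an adjusted p under 0.05. Points lie between 0.11 and 0.27 for every gene except Nlrc5, and the bars of Psmb9 and Nlrc5 are the widest.

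Compared per length (CPM per kb of mean coding transcript), the members covered more than 3 orders of magnitude. B2m was the most abundant at 239 ± 2.17 CPM per kb in control (SD, n = 3), followed by H2-D1 at 94.4 ± 11.7, H2-K1 at 39.1 ± 2.98 and Tapbp at 24.7 ± 2.16. Tap2 and Psmb10 came next at 11.5 ± 0.872 and 8.39 ± 0.389, then Tap1 at 4.40 ± 0.541 and Psmb8 at 4.12 ± 0.589. Psmb9 at 0.793 ± 0.0819 and Nlrc5 at 0.177 ± 0.0553 CPM per kb were the lowest. The order was the same in DKK1-treated cells. Only Tap1 and Psmb8, next to each other in that order, overlapped in control, and no neighbours overlapped with DKK1. With the length of all annotated exons in place of coding transcripts, Psmb10 ranked above Tap2, and the other ranks were unchanged in both groups.

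**Figure D3:**
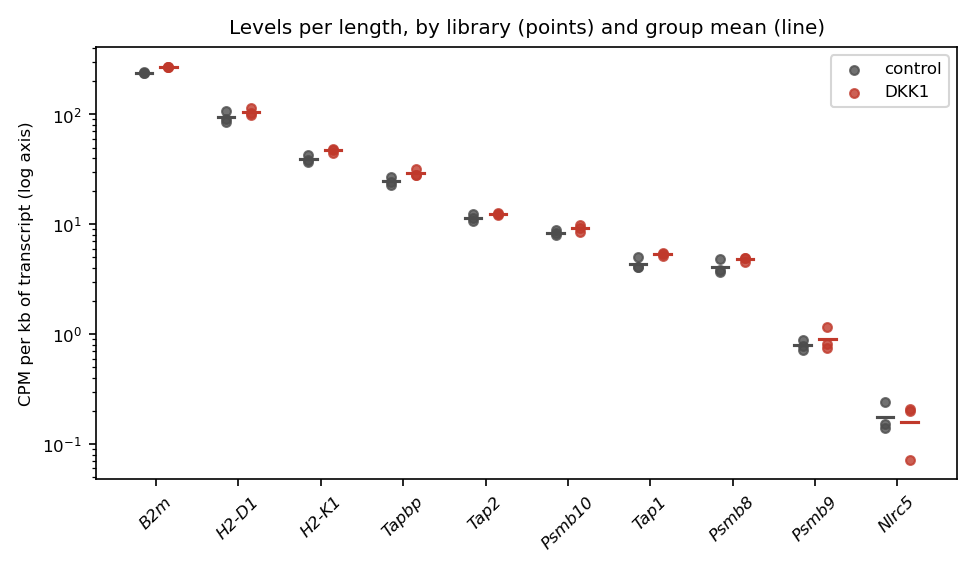
CPM per kb of transcript (log y axis) of the 10 genes in order of their control level; points are libraries and lines are group means (n = 3). B2m tops the order at 239 in control and 272 with DKK1, and Nlrc5 is lowest at 0.177 and 0.159.

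The members also differed in how far they varied together. Across the 6 libraries, the log2 CPM of H2-K1, B2m and Psmb10 followed the mean of the other members most closely, with Pearson r of 0.89, 0.88 and 0.76, and Nlrc5 did not follow it (r = -0.04). Among the 5 other genes whose pattern was most like the mean standardised profile of the members, out of 13012 genes of at least 1 CPM, were Hk2, Ctsz, Cmah and mt-Atp6, with r of 0.98 or more. These values describe 6 libraries of which 3 were treated, so they include the group difference.

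The other genes of the pathway were taken from 6 related lists, in which 81 of 96 genes were tested. Unpaired, edgeR and limma-voom each called 0 of them, and by edgeR 10 had an unadjusted p under 0.05. Without the filter on low counts, edgeR called 4 genes of the lists and DESeq2 3. Paired, edgeR called 8 higher and 1 lower, that is 9 of 81 beside 9.42% of all tested genes called in either direction. A share this near that of all genes is not a result about the lists, and the genes below are described singly. Of 10 tested other class I chains, the paired test called 1: Cd1d1, which presents lipids, rose from 4.35 ± 0.644 to 6.81 ± 0.563 CPM (SD, n = 3 each; LFC 0.65, edgeR adjusted p = 0.00171 paired and 0.0924 unpaired). Fcgrt, the neonatal Fc receptor chain and the most abundant of that list, had an LFC of -0.06 (edgeR adjusted p = 0.444 paired). The list's median was 0.08.

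Of 14 loading and trimming genes, the paired test called 1, the loading complex oxidoreductase Pdia3, which rose by an LFC of 0.09 (edgeR adjusted p = 0.0106 paired and 0.514 unpaired), and the list's median was 0.05. Calr, the chaperone calreticulin and the most abundant gene of that list, was at 1219 ± 40.1 CPM in control and 1266 ± 24.2 CPM with DKK1 (SD, n = 3 each; edgeR adjusted p = 0.108 paired). None of the 19 standard proteasome and PA28 genes was called in either edgeR test, where 0 had an unadjusted p under 0.05 without the block and 2 with it; their median was 0.05 and the most abundant, Psme4, had an LFC of 0.00 (SE 0.03).

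Of 19 transcription factors that act on class I genes, the paired test called 1. Nfkb1, the NF-kB subunit made as p105, rose from 75.8 ± 1.03 to 87.2 ± 4.21 CPM (SD, n = 3 each; LFC 0.20, edgeR adjusted p = 0.00188 paired and 0.105 unpaired). Rela, another NF-kB subunit and the most abundant of the list, had a paired LFC of 0.05 (edgeR adjusted p = 0.464 paired). Irf1, which carries interferon-gamma responses and is named after its values were seen, had an LFC of 0.03 (edgeR adjusted p = 0.862 paired).

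The 3 interferon ligand genes of the list, Ifng, Ifnb1 and Ifnl2, had 0 counts in all 6 libraries, where 3 counts correspond to 0.0864 to 0.133 CPM. Of the 13 tested genes of the interferon ligand, receptor and signalling list, 5 rose in the paired test, beside 4.96% of all tested genes, and the list's median was 0.23 paired and 0.18 unpaired. Socs3, a feedback inhibitor of cytokine receptors, rose from 43.9 ± 5.00 to 65.9 ± 10.8 CPM (SD, n = 3 each; LFC 0.58, edgeR adjusted p = 2.73e-05 paired and 0.0918 unpaired). Ifnar2, a chain of the type I interferon receptor, rose from 51.7 ± 0.985 to 65.5 ± 6.05 CPM (LFC 0.34, adjusted p = 0.000114 paired and 0.0685 unpaired). The phosphatase gene Ptpn2 and the feedback inhibitor Socs1 rose by LFCs of 0.23 and 0.46 (adjusted p = 0.00939 and 0.0185 paired), as did the interferon-inducible Usp18, named after its values were seen, by 0.77 (adjusted p = 0.0444). Jak1, the most abundant of the list, had an LFC of 0.04 (adjusted p = 0.402 paired).

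MHC class II genes, a separate system mostly used by antigen-presenting leukocytes, had mean levels of no more than 3.51 CPM in either group, except for Ctss at 40.3 ± 16.8 CPM in control. The class II transactivator Ciita had at most 4 counts in any library, and 6 of 10 genes could be tested. The paired test called 1 of these, the cathepsin gene Ctss, which is abundant in macrophages and was lower with DKK1 (LFC -0.38, edgeR adjusted p = 0.000105 paired and 0.752 unpaired). H2-DMb1, a chain of a class II peptide-loading helper and the most abundant uncalled gene of the list, was at 3.51 ± 0.605 CPM in control and 3.42 ± 0.793 CPM with DKK1 (SD, n = 3 each). Macrophage markers moved in both directions in the paired test, 3 of 12 higher and 5 lower, beside 4.96% and 4.46% of all tested genes. Cd14, the one marker of that list called unpaired, rose from 9.31 ± 0.222 to 16.8 ± 1.18 CPM (SD, n = 3 each; LFC 0.85, edgeR adjusted p = 0.0028 unpaired and 6.08e-06 paired), without overlap. Its level was 9.31, 9.09 and 9.54 CPM in control replicates 1 to 3, where the sum of the macrophage markers was 452, 515 and 897 CPM. Itgam rose by an LFC of 1.07 and C1qb fell by 1.46 on the log2 scale (edgeR adjusted p = 7.23e-08 and 1.61e-05 paired, 0.136 and 0.322 unpaired). The part of macrophages in the rise of the class I members was not tested. Without the replicate 3 pair, the paired LFCs were 0.30 for H2-K1, 0.19 for H2-D1, 0.19 for B2m and 0.21 for Tapbp. All 4 were called (edgeR adjusted p = 0.00107 to 0.0171). Leaving out that pair does not test the part of macrophages, since some of their markers also moved in pairs 1 and 2. The log2 differences in these pairs were 1.18 and 0.98 for Itgam and -1.73 and -1.88 for C1qb.

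**Figure D4:**
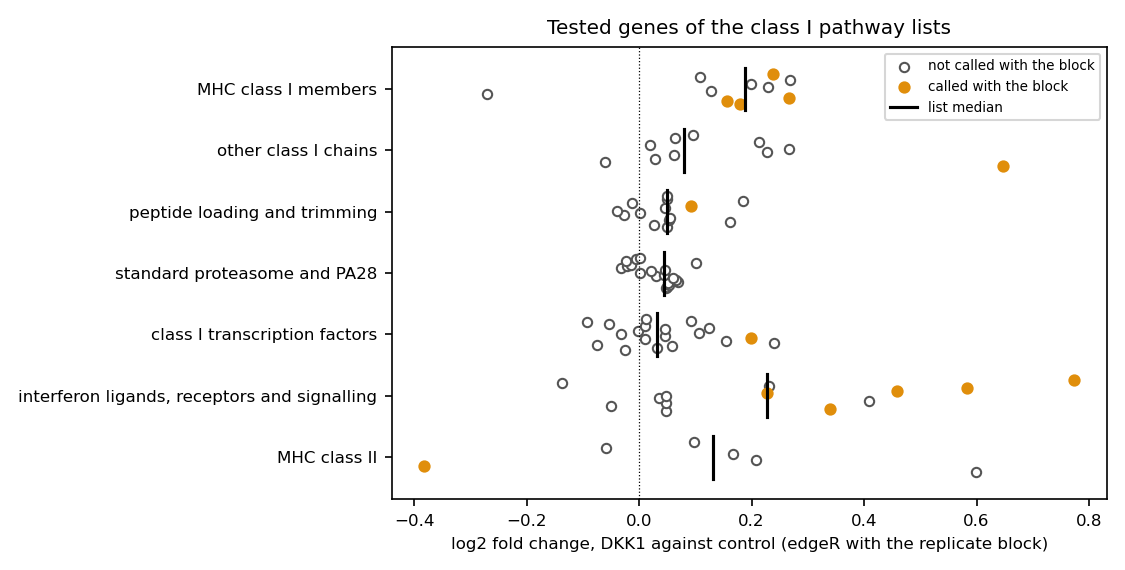
LFC with the replicate block (x axis) of the tested genes of each list, 1 point a gene, with the list median as a black line; filled points were called. The medians are 0.19 for the members, 0.08 for the other chains, 0.05 for the loading genes, 0.05 for the standard proteasome, 0.03 for the transcription factors and 0.23 for the interferon list, whose median without the block is 0.18.

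**Figure D5:**
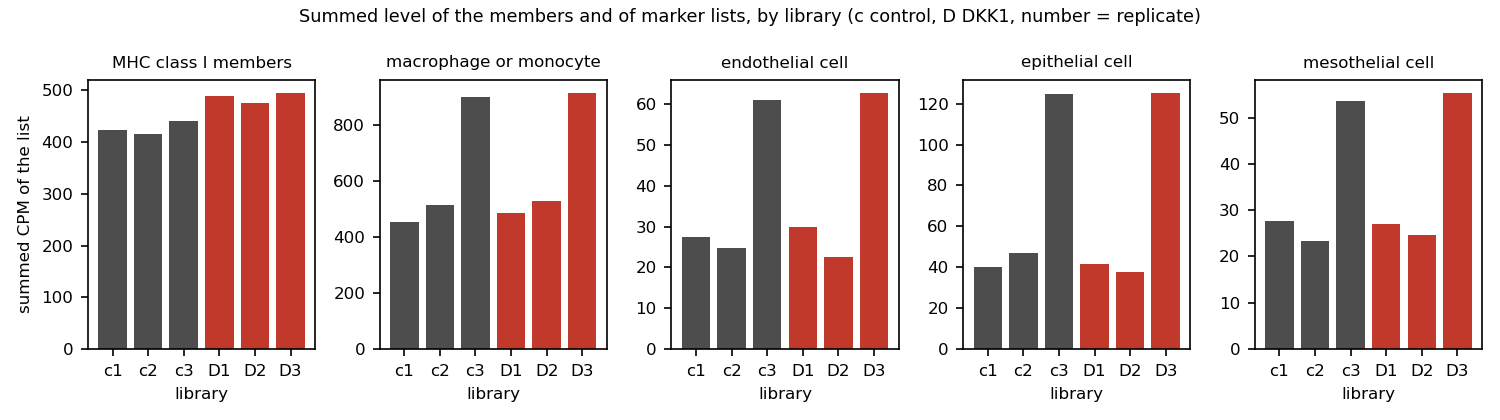
Summed CPM (y axis, from 0) of the 10 members and of macrophage or monocyte, endothelial, epithelial and mesothelial markers in each library, control in grey and DKK1 in red. The members' sum is higher in all DKK1 libraries, while these 4 marker sums are highest in replicate 3 of each group. Lyz2 makes up most of the macrophage or monocyte sum.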

How the data were processed

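RNA was measured in 6 samples, 3 control and 3 DKK1, and the deposited table holds expected counts per gene, made by the authors before deposit. STAR, RSEM and edgeR 4.2.1 and the builds GRCm38 and mm10 stand in the submitters' processing notes; annotation release, strandedness and filters are not given in the sources used here. Symbols came from a supplied table (98.8% of identifiers matched), and coordinates, lengths and GC content from GENCODE M21 (GRCm38), which holds 98.7% of the table's transcripts. Promoters are RefSeq sequences (GRCm38.p6).

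After rounding, the tests were run with edgeR 4.0.16 under R 4.3.3 (filterByExpr, minimum count 10; TMM; two-sided quasi-likelihood test; Benjamini-Hochberg over all 14635 genes; called at an adjusted p under 0.05). An SE is the size of the LFC over the root of F. The pairing comes from replicate numbers in the titles, which the labels do not explain. Same-numbered samples deviated together from their group means across genes (r = 0.19 to 0.36), so the replicate number was also used as a block. The 3-count floor covers counting error only, as PCR copies cannot be told from separate molecules here. The fits were tested on simulated data. Alternatives were other scalings, filters, DESeq2 1.42.0, limma-voom (limma 3.58.1), unrounded counts, a GC and length correction, left-out libraries and, added after seeing the data, summed gene pairs. All 10 members are named; of the related lists, up to 4 called genes by smallest paired p and the most abundant uncalled one. Some genes that the rules name are not reported here. Members and lists were chosen with earlier results of these data known.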

Additional observations from a re-analysis of the deposited data

How the results depend on the processing

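The median LFC of the 10 members, 0.19, stayed at 0.16 to 0.22 in all alternatives run. The counts of calls moved more. With no filter on low counts there were 329 calls over all genes, 2 among the members and 4 in the related lists. DESeq2, also run without that filter, on 23883 genes, called 289, 2 and 3, so here the test and the filter changed together. In both cases the members called were B2m and H2-K1. The replicate block called 1379 genes, 4 members and 9 of the related lists, and the block plus a GC and length correction called 1374, 4 and 10. That correction without the block left 0 members called by edgeR (4 with an unadjusted p under 0.05). Leaving out 1 library gave 36 to 139 calls over all genes (51 and 36 without control replicates 1 and 2, 44 and 57 without DKK1 replicates 1 and 2, against 131 with all libraries), 0 members in each case by edgeR (2 to 5 with an unadjusted p under 0.05) and 0 to 3 genes of the related lists (3 without DKK1 replicate 3); paired, leaving out 1 pair gave 612 to 1312 (1059 without the replicate 3 pair), 3 to 4 and 5 to 8 (6 without the replicate 3 pair). The block changed the calls of H2-K1, H2-D1 and Tapbp and, with the GC and length correction, that of B2m as well.

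The sign changed for genes with few counts only. Nlrc5 went from -0.22 to 0.0848 without control replicate 2, to 0.161 without DKK1 replicate 2 and to 0.466 with the block and without the replicate 2 pair. Psmb9 went from 0.20 to -0.000247 without DKK1 replicate 3. Over the libraries left out, Nlrc5 ranged from -0.445 to 0.161 and Psmb9 from -0.000247 to 0.334. Nlrc5 had 11 to 30 counts and Psmb9 13.46 to 20.82 expected counts a library. Whether depth accounts for the sign changes was not tested.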
